A study of Mus musculus with 30 samples.

Results

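The pentose phosphate pathway enzymes described here are the 6 genes Pgls, Pgd, Rpia, Rpe, Tkt and Taldo1, taken by symbol from the 49089 Ensembl identifiers in the count tables. All 6 passed the filter on low counts that left 11368 genes for testing. The 30 RNA-seq samples, in 8 groups, were of AML12, an established hepatocyte line of the mouse. The cells carried a control siRNA (Control), siRNA against FoxK1 (labelled Foxk1 KD, here FoxK1 KD), siRNA against FoxK2 (labelled Foxk2 KD, here FoxK2 KD) or siRNA against both of these forkhead transcription factors (labelled Double FoxK1/2 KD, here DKD). All were serum starved overnight in medium with albumin and were then left without insulin (basal) or treated with 100 nM insulin for 6 h. Each group had 4 samples, except Control and DKD after insulin stimulation with 3 each. Basal samples are labelled with a time of 0, while the treatment protocol speaks of a mock treatment. A knockdown in 1 cell line leaves part of each transcript, and the labels do not say which samples were separate cultures, so p-values measure the spread between these samples, which may be technical.

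The pentose phosphate pathway branches from glycolysis at glucose 6-phosphate. Its oxidative branch makes NADPH, the reductant for fatty acid and cholesterol synthesis and for glutathione reduction in hepatocytes, and ends in ribulose 5-phosphate. Its non-oxidative branch interconverts sugar phosphates, supplies ribose 5-phosphate for nucleotides and returns carbon to glycolysis. 6-phosphogluconolactonase (Pgls) and 6-phosphogluconate dehydrogenase (Pgd) belong to the oxidative branch. Ribose 5-phosphate isomerase (Rpia), ribulose 5-phosphate epimerase (Rpe), transketolase (Tkt) and transaldolase (Taldo1) form the other. In the liver, insulin and feeding are known to raise the activity of the oxidative branch.

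The genes lie on 6 different chromosomes. In the mouse build GRCm38 they are Pgls (ENSMUSG00000031807.10, chr8:71592176-71601092, plus strand), Pgd (ENSMUSG00000028961.15, chr4:149149991-149166771, minus strand), Rpia (ENSMUSG00000053604.5, chr6:70765720-70792232, minus strand), Rpe (ENSMUSG00000026005.15, chr1:66700831-66719805, plus strand), Tkt (ENSMUSG00000021957.6, chr14:30548359-30574720, plus strand) and Taldo1 (ENSMUSG00000025503.5, chr7:141392199-141402968, plus strand). The promoters of Pgd, Rpe and Tkt are shown because these 3 genes were higher after insulin stimulation in Control cells. Each window is the coding strand from 250 bases before to 50 bases after the RefSeq start in GRCm38.p6. Capitals mark the CCAAT box (CCAAT) and the GC box (GGGCGG), each on either strand.
Pgd, chr4:149166656-149166955, minus strand: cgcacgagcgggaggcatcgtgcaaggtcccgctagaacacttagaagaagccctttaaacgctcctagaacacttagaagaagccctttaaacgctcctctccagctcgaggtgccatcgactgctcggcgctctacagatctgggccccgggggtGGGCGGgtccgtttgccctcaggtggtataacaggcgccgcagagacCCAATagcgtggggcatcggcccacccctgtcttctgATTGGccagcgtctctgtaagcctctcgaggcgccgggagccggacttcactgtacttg
Rpe, chr1:66700581-66700880, plus strand: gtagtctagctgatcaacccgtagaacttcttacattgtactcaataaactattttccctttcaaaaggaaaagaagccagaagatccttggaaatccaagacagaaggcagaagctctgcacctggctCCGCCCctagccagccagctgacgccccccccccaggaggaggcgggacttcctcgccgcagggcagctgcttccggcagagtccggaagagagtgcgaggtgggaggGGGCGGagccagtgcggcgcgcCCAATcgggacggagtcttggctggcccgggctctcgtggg
Tkt, chr14:30548881-30549180, plus strand: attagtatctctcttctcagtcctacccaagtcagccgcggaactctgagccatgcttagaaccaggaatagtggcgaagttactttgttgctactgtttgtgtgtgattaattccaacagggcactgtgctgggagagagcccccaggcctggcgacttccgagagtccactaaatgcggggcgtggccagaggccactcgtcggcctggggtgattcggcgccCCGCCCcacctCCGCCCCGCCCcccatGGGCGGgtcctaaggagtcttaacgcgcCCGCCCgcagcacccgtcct

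The GC box was in a window of all 6 enzymes and in 35.7% of the 32841 RefSeq windows searched. Tkt held 5 GC box matches, of which the pair between 14 and 4 bases before the start overlap. The CCAAT box was in windows of 3 of 6 enzymes (Rpe, Pgd and Taldo1) and in 37.4% of all windows. In Pgd, CCAAT box matches lay at 46 and 9 bases before the start, 1 on each strand. The antioxidant response core (TGACNNNGC) was in the window of 1 enzyme, at a second RefSeq start of Pgd, and in 12.4% of all windows. The forkhead core (TAAACA, 13.4% of all windows), the E-box (CACGTG, 7.15%) and the sterol response core (TCACNCCAC, 1.24%) had no match in the windows of the 6 enzymes.

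Total counts were 2141460 to 5668270 per sample, which gave the 6 enzymes between 36 (Pgls) and 2180 (Tkt) counts in a sample. As a check of the knockdowns at basal, Foxk1 transcript was 45.2% (FoxK1 KD) and 57.1% (DKD) of its Control mean, and Foxk2 33.7% (FoxK2 KD) and 35.8% (DKD). After insulin stimulation Foxk1 was at 58.2% (FoxK1 KD) and 64.6% (DKD), and Foxk2 at 40.4% (FoxK2 KD) and 39.5% (DKD). Each of the 10 hepatocyte markers had counts in every group, with a summed level of 2123.9 to 2928.1 CPM (counts scaled to a common library total) over the 30 samples, although Alb, the albumin gene, was low at a median of 6.77 CPM. Apoa1 and Cps1 had medians of 0.371 and 0.352 CPM and were at 0 in 5 and 8 samples. The hepatocyte markers with the highest medians were Krt18 (1090 CPM) and Krt8 (713 CPM). The 4 cholangiocyte markers summed to 534.4 to 1072.6 CPM and the 4 macrophage markers to 4.09 to 22.1 CPM, while fibroblast and endothelial markers summed to at most 1.39 and 0.55 CPM. Of the cholangiocyte markers, Krt19, Sox9 and Krt7 had medians of 471, 189 and 23.7 CPM, and Epcam was at 0 in all 30 samples. The libraries also fell apart in a way that the groups do not state. The pseudogene Gm42939 was at 0 to 0.284 CPM in the 12 basal samples of Control, FoxK1 KD and FoxK2 KD and at 4.42 to 13.5 CPM in the 18 others. Insulin effects in Control, FoxK1 KD and FoxK2 KD, and comparisons of DKD with other basal groups, cross this division and cannot be told apart from it. The DKD interaction carries it too, since the insulin effect in Control crosses it and the one in DKD does not. Insulin effects in DKD cells, comparisons after insulin stimulation and the single knockdowns at basal lie within it. Another pseudogene, Gm13668, split the samples less cleanly. It was at 0 to 0.33 CPM in the same 12 samples and at 0.221 to 3.87 CPM in DKD after insulin. In the other groups it was at 1.26 to 5.91 CPM.

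Per kilobase of exon, Taldo1 was the most abundant of the 6 transcripts in Control cells at basal, at 70.7 ± 10.5 CPM per kb (SD, n = 4). Tkt and Pgd followed at 47.6 ± 2.76 and 44.7 ± 10.01 CPM per kb, and their samples overlapped. Rpe was at 31.9 ± 4.27 CPM per kb. Rpia (4.68 ± 0.857) and Pgls (4.51 ± 0.965) were lowest, and their samples overlapped. In Control cells after insulin stimulation Pgd stood first at 68.8 ± 4.77 CPM per kb (n = 3), although its samples overlapped those of Taldo1 at 66.1 ± 1.46. With the longest transcript in place of the union of exons, Taldo1 was at 112.7 and Tkt at 108.6 CPM per kb in Control cells at basal, with Pgd at 79.1. Transcripts of the transketolase paralogs Tktl1 and Tktl2 were nearly missing, with 3 and 0 counts over all 30 samples. In bulk RNA, fewer cells with a transcript and less of it per cell cannot be told apart.

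**Figure D1:**
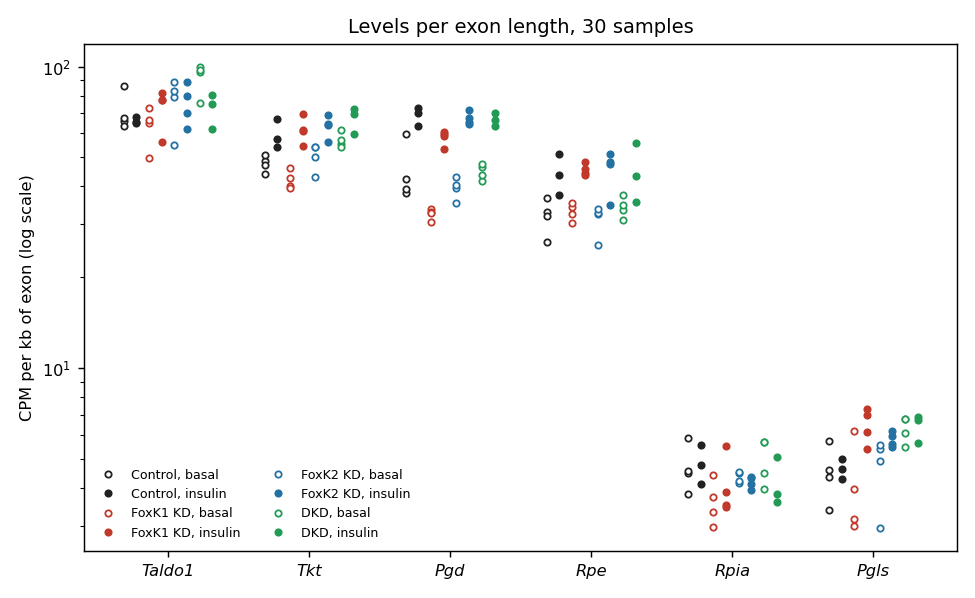
CPM per kb of exon (log scale) of each enzyme in the 30 samples, 1 point a sample, open for basal and filled for insulin, coloured by knockdown. Taldo1, Tkt, Pgd and Rpe sit above 25 CPM per kb in every sample, and Rpia and Pgls far below that.

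**Figure D2:**
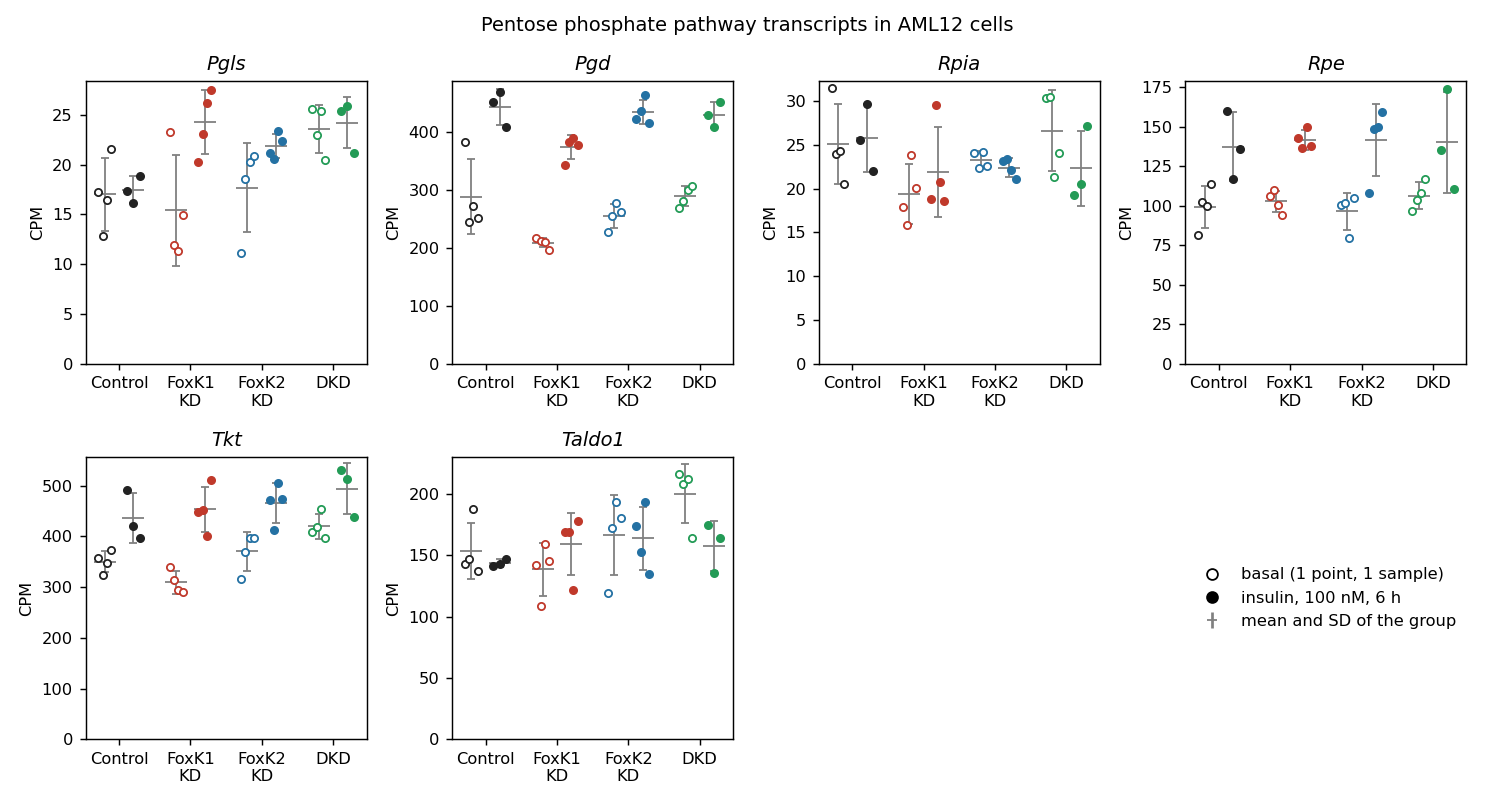
CPM of each enzyme in the 8 groups, 1 point a sample, with the mean and SD of each group in grey. Pgd is higher after insulin in each genotype, Rpia passes the test in none, and FoxK1 KD at basal has the lowest Pgd mean at 209.4 CPM.

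In the oxidative branch, Pgd was higher after insulin stimulation in Control cells, and Pgls did not differ detectably. This comparison crosses the Gm42939 division and cannot be told apart from it. Pgd was at 383.6, 245.5, 272.7 and 251.8 CPM at basal and at 453.0, 468.7 and 409.3 CPM after insulin. All insulin samples lay above all basal samples, of which replicate 1 was the highest. The log2 fold change of Pgd was 0.62 ± 0.10 (adjusted p = 1.5e-05, edgeR), and 0.79 without that sample. Pgls, at 12.8 to 21.6 CPM at basal and 16.1 to 18.9 after insulin, gave 0.02 with a 95% interval from -0.37 to 0.41.

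In the non-oxidative branch, Rpe and Tkt were higher after insulin in Control cells, in the same comparison across the Gm42939 division. Rpe was at 81.7, 102.5, 99.7 and 113.7 CPM at basal and at 159.8, 116.6 and 135.8 CPM after insulin, a log2 fold change of 0.46 ± 0.13 (adjusted p = 0.00759, edgeR). Tkt was at 356.7, 324.3, 346.6 and 372.9 CPM at basal and at 492.0, 421.3 and 397.4 CPM after insulin, a log2 fold change of 0.32 ± 0.09 (adjusted p = 0.0115, edgeR). In both genes the groups did not overlap. Rpia (0.05, 95% interval -0.26 to 0.37) and Taldo1 (-0.09, -0.38 to 0.19) did not pass the test. Thus 3 of 6 enzymes were called, all higher, where 25.4% of all tested genes were called in either direction and 12.4% were called higher. The median log2 fold change was 0.19 over the 6 enzymes and -0.01 over all tested genes. Control insulin replicate 1 was the highest of its group for Rpe and Tkt. Without it Pgd alone kept its call, with log2 fold changes of 0.33 for Rpe (adjusted p = 0.099) and 0.21 for Tkt (adjusted p = 0.14) in edgeR. With a fit of these 2 groups alone, 1 enzyme (Pgd) was called, with Rpe at 0.47 (adjusted p = 0.055) and Tkt at 0.33 (adjusted p = 0.087). Csf1r was the most abundant macrophage marker, at a median of 9.06 CPM over the 30 samples. Ptprc, Cd68 and Adgre1 had medians of 1.15, 0.762 and 0 CPM. Markers with a group median of at least 1 CPM went from 2 at basal to 3 after insulin in Control and each single knockdown. In DKD they went from 1 to 2. Summed macrophage markers were lower after insulin in every genotype without overlap. They went from 8.22 to 12.9 CPM to 4.09 to 6.33 CPM in Control, from 17.7 to 22.1 to 10.5 to 13.7 in FoxK1 KD, from 11.1 to 13.4 to 4.09 to 6.61 in FoxK2 KD and from 15.7 to 17.97 to 6.63 to 9.51 in DKD. The mitochondrial share of counts was also lower without overlap in FoxK1 KD (1.71% to 2.43% at basal, 1.31% to 1.58% after insulin) and FoxK2 KD (1.6% to 1.79%, 1.16% to 1.49%). It overlapped in Control (1.32% to 2.13%, 1.11% to 1.44%) and in DKD (0.989% to 1.26%, 1.18% to 1.7%). The part of both in the insulin results was not tested.

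Pgd was also higher after insulin in every knockdown. The comparisons in FoxK1 KD and FoxK2 KD cross the Gm42939 division too, while the one in DKD does not. In FoxK1 KD cells it went from 217.2, 212.2, 210.8 and 197.2 CPM at basal to 343.9, 383.8, 390.8 and 378.6 CPM after insulin. The groups did not overlap, and the log2 fold change was 0.84 ± 0.10 (adjusted p = 3.7e-08, edgeR). Tkt rose by 0.55 ± 0.09 (adjusted p = 1.4e-05), from a range of 290.1 to 339.2 CPM to one of 401.3 to 511.1 CPM. Rpe rose by 0.46 ± 0.12 (adjusted p = 0.00405), from 94.2 to 109.6 CPM at basal to 136.3 to 149.9 CPM. FoxK1 KD was the genotype in which Pgls also passed the test. Its samples were at 23.3, 11.9, 11.3 and 15.0 CPM at basal and at 20.3, 23.1, 26.2 and 27.5 CPM after insulin, so that basal replicate 1 lay among the insulin samples. The log2 fold change of Pgls was 0.64 ± 0.19 (adjusted p = 0.00928, edgeR), and 0.49 without basal replicate 3 (adjusted p = 0.055). With the replicate block and the offset for GC content and gene length together it was 0.47 (adjusted p = 0.050), which left 3 enzymes called. In all, 4 of 6 enzymes were called higher (31.6% of all genes called, 16.2% higher), with Rpia and Taldo1 below the threshold.

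In FoxK2 KD cells the enzymes called were those called in Control. Pgd went from 226.9 to 277.9 CPM at basal to 415.1 to 463.5 CPM after insulin (log2 fold change 0.77 ± 0.09, adjusted p = 1.5e-07, edgeR). Rpe rose by 0.55 ± 0.12 (adjusted p = 0.00085) and Tkt by 0.33 ± 0.09 (adjusted p = 0.00481). For these 3 genes the basal and insulin samples did not overlap. The background was 28.1% of genes called and 14.4% called higher, against 3 of 6 enzymes. In DKD cells, where basal and insulin libraries both carried the Gm42939 reads, 2 of 6 were called higher (16.3% of genes called, 8.31% higher). Pgd went from 268.8, 281.0, 299.8 and 306.6 CPM to 429.1, 408.2 and 452.5 CPM (log2 fold change 0.57 ± 0.10, adjusted p = 0.00011, edgeR). Every insulin sample was above every basal sample.

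Rpe in DKD cells was called by a small margin. It was at 96.5, 103.8, 108.3 and 117.1 CPM at basal and at 135.1, 174.1 and 110.8 CPM after insulin, and the groups overlapped. The log2 fold change was 0.38 ± 0.13 (adjusted p = 0.0419, edgeR). The call was lost with limma-voom (adjusted p = 0.067), which left 1 enzyme, and in 5 of 7 fits that left out 1 sample, those without DKD basal replicate 1, 2 or 3 or DKD insulin replicate 1 or 2. Without DKD insulin replicate 2 the log2 fold change was 0.20. The call was also lost with an offset for GC content and gene length, at 0.25 (adjusted p = 0.093), and with the replicate block added to it, at 0.28 (adjusted p = 0.076). Tkt in DKD cells was at 397.2 to 454.9 CPM at basal and at 437.3 to 531.7 CPM after insulin, with a log2 fold change of 0.24 ± 0.09 that did not pass the test (adjusted p = 0.0852, edgeR). It passed without DKD insulin replicate 3 (0.32, adjusted p = 0.04) and with a fit of the 2 DKD groups alone (adjusted p = 0.038). It also passed with the GC and length offset (0.30, adjusted p = 0.027) and with the block added (0.31, adjusted p = 0.028), so that Tkt took the place of Rpe and the count stayed at 2. Taldo1 had the opposite sign, with a log2 fold change of -0.34 ± 0.14 (adjusted p = 0.11, edgeR). It passed with a fit of the 2 DKD groups alone (-0.33, adjusted p = 0.022), in which 4 of 6 enzymes were called.

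Whether the insulin effect differed between genotypes was tested as an interaction. With edgeR, 0 of 6 enzymes were called for FoxK1 KD, FoxK2 KD or DKD against Control, and DESeq2 and limma-voom also called 0. At an unadjusted p under 0.05 the counts were 1 (Pgls in FoxK1 KD), 0 and 0. Over all genes, 13.4% for FoxK1 KD, 5.5% for FoxK2 KD and 14.6% for DKD had an unadjusted p under 0.05. After adjustment, 0.0% of genes were called for FoxK1 KD, 0.0% for FoxK2 KD and 1.54% for DKD. For Pgd the insulin effect in DKD minus that in Control was -0.05 on the log2 scale, with a 95% interval from -0.33 to 0.23. For Tkt it was -0.08 (-0.35 to 0.18) and for Rpe -0.08 (-0.45 to 0.28). The intervals were wider for Rpia, at -0.31 (-0.76 to 0.14), Taldo1, at -0.24 (-0.64 to 0.16), and Pgls, at 0.01 (-0.53 to 0.55). The DKD interaction also carries the Gm42939 division and cannot be told apart from it. For Pgls in FoxK1 KD the difference was 0.62 (0.08 to 1.15, adjusted p = 0.331). The genotypes share the Control samples in these tests.

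**Figure D3:**
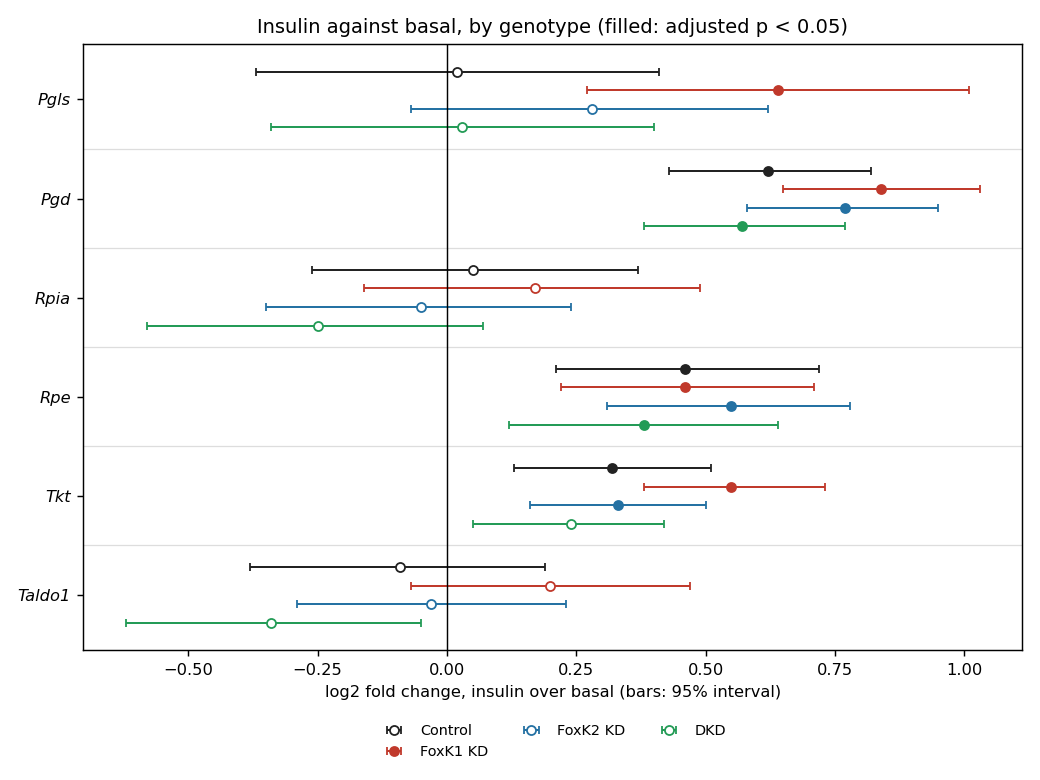
log2 fold change of insulin over basal for each enzyme in the 4 genotypes, with 95% intervals, filled where the adjusted p is below 0.05. Pgd and Rpe are filled in all 4 genotypes, Tkt in 3, Pgls in FoxK1 KD, and Rpia and Taldo1 in none.

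Some exons of the enzymes are shared with neighbouring genes, and whether counting used the strand is not given in the sources used here. Rpe shares 558 of 3113 exonic bases with Kansl1l on the opposite strand. Kansl1l fell with insulin by 0.84 in Control (adjusted p = 0.0002, edgeR), while Rpe rose. Pgls shares 776 of 3770 exonic bases with Fam129c on the same strand, which had 605 counts over the 30 samples against 2165 for Pgls. The part of shared reads in the results was not tested.

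FoxK1 KD cells had the lowest group mean at basal for 5 of the 6 enzymes, all but Rpe. Against Control at basal, 1 of 6 was called, where 8.09% of all genes were called. This was Pgd, at 197.2 to 217.2 CPM in FoxK1 KD against 245.5 to 383.6 CPM in Control, without overlap. Its log2 fold change was -0.46 ± 0.10 (adjusted p = 0.00236, edgeR). Without Control replicate 1, the highest of its group, the value was -0.29 (adjusted p = 0.02). With a fit of the 2 groups alone the value stayed at -0.46 but the call was lost (adjusted p = 0.13). Rpia (-0.34 ± 0.15, adjusted p = 0.154) and Tkt (-0.18 ± 0.09, adjusted p = 0.213) had the same sign, and Rpe was at 0.04 ± 0.12. The median over the enzymes was -0.16, against -0.01 over all genes. Macrophage markers summed to 17.7 to 22.1 CPM in FoxK1 KD at basal and to 8.22 to 12.9 CPM in Control, with Adgre1 at 0 in all 30 samples and Csf1r the most abundant. The 4 cholangiocyte markers summed to 534.4 to 609.8 CPM and to 638.7 to 1072.6 CPM. Their part in the Pgd result was not tested.

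In FoxK2 KD cells at basal, 0 of 6 enzymes were called by edgeR, DESeq2 or limma-voom, where 0.378% of all genes were called. An unadjusted p under 0.05 was found for 0 of the enzymes and for 11.2% of all genes. The log2 fold changes ran from -0.17 (Pgd, 95% interval -0.36 to 0.01) to 0.12 (Taldo1, -0.14 to 0.38).

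In DKD cells at basal 2 non-oxidative enzymes were higher than in Control, of 6 tested, where 21.1% of all genes were called. This comparison crosses the Gm42939 division and cannot be told apart from it. Tkt was at 407.7, 418.6, 454.9 and 397.2 CPM in DKD and at 324.3 to 372.9 CPM in Control, without overlap, with a log2 fold change of 0.26 ± 0.09 (adjusted p = 0.0323, edgeR). Taldo1 was at 216.2, 208.0, 211.9 and 164.1 CPM in DKD against 142.9, 146.5, 187.1 and 137.3 CPM in Control. DKD replicate 4 and Control replicate 3 gave the overlap, and the log2 fold change was 0.38 ± 0.13 (adjusted p = 0.0367, edgeR). Pgls, at 20.5 to 25.6 CPM against 12.8 to 21.6 CPM, gave 0.45 ± 0.18 (adjusted p = 0.0712). Without Control replicate 4 it passed, at 0.60 (adjusted p = 0.026). Pgd, at 268.8 to 306.6 CPM in DKD, gave 0.01 with a 95% interval from -0.18 to 0.19.

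Both calls in DKD were near the threshold. The Tkt call was lost in 5 of 8 fits that left out 1 sample, those without Control replicate 2 or 3 or DKD replicate 1, 2 or 3. The Taldo1 call was lost in 6 of 8, those without Control replicate 1, 2 or 4 or DKD replicate 1, 2 or 3, so that the number of enzymes called ranged from 0 to 2. An offset for GC content and gene length lowered the values to 0.14 for Tkt (adjusted p = 0.30) and 0.24 for Taldo1 (adjusted p = 0.18). Under that offset Rpe, the member with the lowest GC content at 39.2%, became the called enzyme, at 0.37 (adjusted p = 0.0085, edgeR). With a fit of Control and DKD at basal alone, 0 were called, with Tkt still at 0.26 (adjusted p = 0.063) and Taldo1 at 0.38 (adjusted p = 0.052). Mitochondrial transcripts took 0.989% to 1.26% of counts in DKD and 1.32% to 2.13% in Control at basal. Macrophage markers summed to 15.7 to 17.97 CPM in DKD against 8.22 to 12.9 CPM in Control. Neither overlapped, and their part in these results was not tested.

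DKD and FoxK1 KD cells at basal were compared after the data were seen, since FoxK1 KD had the lowest means and DKD did not. The same values gave the reason for the comparison and its p-values, which do not account for that choice. In it 5 of 6 enzymes were higher in DKD, where 26.3% of all 11368 genes were called in either direction and 1565 were called higher. Pgd, at 268.8 to 306.6 CPM against 197.2 to 217.2 CPM, had a log2 difference of 0.46 ± 0.10 (adjusted p = 0.00068, edgeR). Tkt, at 397.2 to 454.9 CPM against 290.1 to 339.2 CPM, had 0.44 ± 0.09 (adjusted p = 0.00058). Taldo1 had 0.52 ± 0.13 (adjusted p = 0.00417), Pgls 0.59 ± 0.18 (adjusted p = 0.0173) and Rpia 0.46 ± 0.15 (adjusted p = 0.0262). The samples of Pgd, Tkt and Taldo1 did not overlap, and those of Pgls and Rpia did. Pgls lost its call without FoxK1 KD replicate 2 or 3 or DKD replicate 1, and Rpia without FoxK1 KD replicate 1 or 2 or DKD replicate 1 or 2, which left 3 to 5 enzymes called. Under the GC and length offset Pgls (adjusted p = 0.22) and Taldo1 (adjusted p = 0.099) lost their calls and Rpe gained one (0.34, adjusted p = 0.023). The mitochondrial share was 0.989% to 1.26% in DKD and 1.71% to 2.43% in FoxK1 KD. Cholangiocyte markers summed to 642.7 to 694.0 CPM and to 534.4 to 609.8 CPM. Neither overlapped, and their part in these results was not tested. Against FoxK2 KD at basal, 0 of 6 were called in DKD by edgeR, DESeq2 or limma-voom, where 17.0% of all genes were called. Of the 6, 1 (Pgls) had an unadjusted p under 0.05, as did 31.8% of all genes. Comparisons of DKD with either single knockdown at basal cross the Gm42939 division and cannot be told apart from it.

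**Figure D4:**
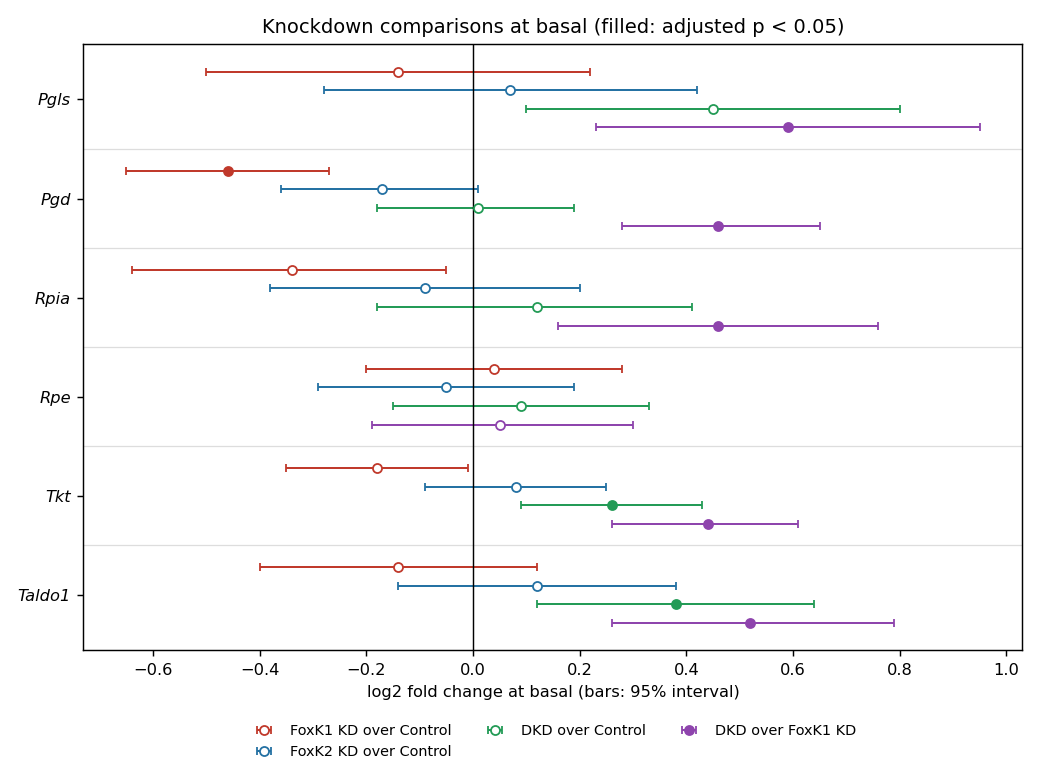
log2 fold change at basal for FoxK1 KD, FoxK2 KD and DKD over Control and for DKD over FoxK1 KD, with 95% intervals, filled where the adjusted p is below 0.05. Pgd is filled on the lower side in FoxK1 KD, Tkt and Taldo1 on the higher side in DKD, and 5 enzymes for DKD over FoxK1 KD.

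After insulin stimulation, 0 of 6 enzymes were called in FoxK1 KD, FoxK2 KD or DKD against Control by edgeR, DESeq2 or limma-voom. The share of all genes called was 3.59% in FoxK1 KD, 0.0264% in FoxK2 KD and 1.21% in DKD. At an unadjusted p under 0.05 there were 2 enzymes in FoxK1 KD (Pgls and Pgd), 0 in FoxK2 KD and 1 in DKD (Pgls). Over all genes, 17.5% in FoxK1 KD, 6.03% in FoxK2 KD and 12.7% in DKD had an unadjusted p under 0.05. Pgd in FoxK1 KD was at 343.9 to 390.8 CPM against 409.3 to 468.7 CPM in Control, a log2 difference of -0.25 ± 0.10 (adjusted p = 0.184, edgeR). Pgls was at 16.1 to 18.9 CPM in Control after insulin and at 20.3 to 27.5 CPM in FoxK1 KD, 20.6 to 23.4 CPM in FoxK2 KD and 21.2 to 25.9 CPM in DKD. Each knockdown lay above Control without overlap, with log2 differences of 0.47, 0.32 and 0.46 that did not pass the test. The 3 comparisons share the Control samples. The share of all genes whose groups lay apart was not counted, here or in the other comparisons.

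Over the 8 groups the spread of levels differed among the enzymes. The ratio of the highest to the lowest group mean was 2.12 for Pgd and 1.60 for Tkt. It was 1.58 for Pgls, 1.47 for Rpe, 1.45 for Taldo1 and 1.37 for Rpia. Pgd and Tkt varied together over the 30 samples, with a Pearson r of log2-CPM of 0.82, and Pgls and Tkt had r of 0.76. With the group means taken out, these were 0.25 and 0.61. Rpia had r of 0.03 to Tkt and -0.31 to Rpe. The 30 samples fall into 8 groups, so these r values also carry the differences between groups. The genes most like Pgd over the 30 samples were Ldha (r = 0.96), which encodes lactate dehydrogenase A, Hyou1 (0.95), an endoplasmic reticulum chaperone, and Nars (0.95), asparaginyl-tRNA synthetase. For Tkt they were Phb, Slc25a10 and Mif (each 0.91), and for Rpe Psmd5 (0.90), Nadk (0.90), the cytosolic NAD kinase that makes NADP, and Xpo1 (0.88). For Taldo1 they were Git1 (0.86), Psmc3 (0.81) and Rab17 (0.80), for Pgls Cuta (0.83), Ggt7 (0.81) and Ssna1 (0.80), and for Rpia Ptms (0.78), Hnrnpa3 (0.78) and Cdc37 (0.72).

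Genes around the pathway were counted in 5 lists. In glycolysis between glucose and lactate, with 19 genes tested, 12 rose and 0 fell with insulin in Control, 15 and 0 in FoxK1 KD, 16 and 0 in FoxK2 KD, and 11 and 0 in DKD. Over all tested genes, 12.4%, 16.2%, 14.4% and 8.31% were called higher. The median log2 fold changes were 0.43, 0.61, 0.55 and 0.47, against -0.01 to 0.01 over all tested genes. At basal, 11 glycolytic genes were lower and 0 higher in FoxK1 KD than in Control, with a median of -0.35 against -0.01 over all genes, of which 8.09% were called in either direction. In DKD at basal 4 of 19 were called, against 21.1% of all genes. Of these 3 were lower, namely Pgam1 (-0.34), Ldha (-0.30) and Pfkp (-0.35), and 1 was higher, the enolase Eno1 (0.30). Ldha was also lower in FoxK1 KD, at -0.67 (adjusted p = 7.9e-05, edgeR).

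Users of NADPH (glutathione and thioredoxin reduction and lipid synthesis, 11 tested) rose with insulin in 8 cases in Control and in each single knockdown and in 7 in DKD, with 0 lower in any genotype and medians of 0.40 to 0.46, where 8.31% (DKD) to 16.2% (FoxK1 KD) of all genes were called higher. Among them were the cholesterol synthesis enzymes Sqle (0.50 in Control, 0.60 in DKD) and Dhcr7 (0.31 and 0.56). At basal in DKD 1 was higher and 5 were lower than in Control, with a median of -0.13 (0.00 over all genes, 21.1% called), including Dhcr7 (-0.28), Sqle (-0.24) and the aldose reductase Akr1b3 (-0.66). In FoxK1 KD at basal 1 was lower, and 0 were higher (8.09% of all genes called). The list of other NADPH sources held 14 genes, among them the NAD kinases Nadk and Nadk2, which make NADP and not NADPH. Of these 14 genes, 7 rose and 2 fell with insulin in Control (median 0.19), where 25.4% of all genes were called in either direction. In DKD 7 rose and 2 fell (median 0.27), where 16.3% of all genes were called. In FoxK1 KD 7 rose and 4 fell (31.6% of all genes) and in FoxK2 KD 8 rose and 3 fell (28.1%). Mthfd2 and Aldh1l2, of mitochondrial folate metabolism, rose by 1.49 and 1.05 in Control and by 1.57 and 1.38 in DKD. In FoxK1 KD Aldh1l2 was not called (0.56, adjusted p = 0.057, edgeR). The 2 that fell were Me3 (-2.08) and Nadk2 (-0.49) in Control and Me3 (-0.96) and Idh2 (-0.45) in DKD. Me3 was low, at a median of 3.72 CPM. In DKD at basal 1 of the 14 was higher and 3 were lower than in Control, where 21.1% of all genes were called. Mthfd2 and Aldh1l2 were among the lower, by log2 differences of -0.48 and -0.79, with the mitochondrial NAD kinase Nadk2 at -0.45. Isocitrate dehydrogenase Idh2 was higher, at 0.31 (adjusted p = 0.0053, edgeR).

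Among side reactions and isozymes of the pathway (14 of 18 tested), 2 rose and 0 fell with insulin in Control (median 0.15), 3 and 0 in FoxK1 KD (-0.02), 2 and 1 in FoxK2 KD (0.08) and 0 and 1 in DKD (0.01). These counts are near or below the shares over all genes, of which 25.4%, 31.6%, 28.1% and 16.3% were called in either direction. At basal in DKD 3 were higher and 1 was lower, with a median of 0.09, where 21.1% of all genes were called. Dcxr, L-xylulose reductase, was at 0.88 ± 0.13 (adjusted p = 1.8e-05, edgeR), H6pd, the endoplasmic reticulum hexose-6-phosphate dehydrogenase, at 0.37 and Tigar, a fructose bisphosphatase that lowers glycolytic flux, at 0.40. Prps1, which makes phosphoribosyl pyrophosphate from ribose 5-phosphate, was lower, at -0.37 (adjusted p = 0.021). Tigar rose with insulin in Control by 0.67 (adjusted p = 1.6e-05), while Dcxr fell by 0.40 in DKD (adjusted p = 0.048) and rose by 0.45 in FoxK1 KD (adjusted p = 0.011). Of 11 regulators known to act on these enzymes or their genes, 0 rose and 1 fell with insulin in Control (median 0.09), 5 and 0 in FoxK1 KD (0.29), 4 and 1 in FoxK2 KD (0.26) and 2 and 3 in DKD (0.11). Over all genes 25.4%, 31.6%, 28.1% and 16.3% were called in either direction. Those called in FoxK2 KD, named after their values were seen, were Keap1 (0.36), Srebf1 (0.41), Srebf2 (0.31) and Mlxipl (0.70) on the higher side and Myc (-0.63) on the lower. In DKD at basal, Trp53 (0.26), the p53 tumour suppressor, and Mlxip (0.35) were higher than in Control and Hif1a (-0.39) was lower (21.1% of all genes called). In FoxK1 KD at basal 3 were lower than in Control (8.09% of all genes called). These were Srebf1 (-0.33), Srebf2 (-0.31) and Trp53 (-0.30), so that Trp53 had opposite signs in FoxK1 KD and DKD, which share the Control samples.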

How the data were processed

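Poly(A) RNA of 30 AML12 samples was sequenced on an Illumina HiSeq instrument, and the authors deposited raw read counts per Ensembl gene, without normalization. The submitters' processing notes name CASAVA 1.8, STAR 2.4.2a, featureCounts and the build GRCm38.p4. The strand setting, the handling of multi-mapped reads and the annotation release are not given in the sources used here. Of 49089 identifiers, 48435 matched GENCODE M21 by identifier and 41427 also by version. Promoters came from RefSeq (GRCm38.p6), which had a window for all 6 enzymes.

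Totals of 2141460 to 5668270 counts limit precision most for Pgls and Rpia. Genes were filtered with filterByExpr, scaled by TMM and fitted in 1 model of the 8 groups with edgeR 4.0.16 (glmQLFit, glmQLFTest), with Benjamini-Hochberg adjustment over 11368 genes and a threshold of 0.05. Standard errors were |log2 fold change| over the square root of F, intervals were 1.96 SE, and CPM used TMM-adjusted library sizes. On simulated counts for DKD against Control at basal (11072 genes), 63 of 98 genes changed 1.5-fold and 89 of 97 changed 2-fold were recovered, with 10 of 162 calls false. For the DKD insulin interaction (11071 genes) 21 of 97 and 66 of 98 were recovered, with 3 of 90 calls false. Only these genes were changed, in 1 group, while 21.1% of genes were called in the real DKD against Control comparison at basal. The folds of Tkt (1.2) and Taldo1 (1.3) there were smaller than those simulated, so recovery at their size is not known. In 42 pairs of samples within groups, the lowest chi-square per degree of freedom was 1.75, so none looked like a copy.

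There were 13 planned comparisons and 2 added after seeing the data (DKD against FoxK1 KD and against FoxK2 KD at basal). 1 member and 1 list gene are not reported here, and counts of enzymes are over the other 6. The members and lists were chosen with earlier results of these data known. Named genes were the members, Foxk1 and Foxk2, the 3 genes most correlated with each member (log2-CPM, prior count 2), and up to 4 genes a list with an adjusted p below 0.05 and the lowest adjusted p in DKD against Control at basal or in the DKD interaction. Neighbours sharing exons, the pseudogenes, the paralogs and Me3 were named after their values were seen. The alternatives were RLE factors, DESeq2 1.42.0, limma-voom (limma 3.58.1), other count filters, a replicate block, an offset for GC content and length (splines with 5 degrees of freedom), fits of the compared groups alone, leaving out each sample, and the study's thresholds of 0.25 with and without a 1.5-fold minimum.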

Additional observations from a re-analysis of the deposited data

Results flagged for a closer look

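Of the 36 sets of 4 samples (1 enzyme in 1 group), 3 held a sample far from the other 3 by Dixon's criterion at 95%, where chance flags about 1 in 20. Rpe in FoxK2 KD at basal was lowest in replicate 3, at 79.3 CPM. Taldo1 in DKD at basal was lowest in replicate 4, at 164.1 CPM, and Taldo1 in FoxK1 KD after insulin was lowest in replicate 3, at 121.5 CPM. Without DKD basal replicate 4, both calls in DKD against Control at basal were kept.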

How the results depend on the processing

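No value called in the report changed sign under an alternative. RLE factors, DESeq2 and a minimum of 10 counts in every sample changed no call among the members. With a fit of only the groups compared, 0 enzymes were called in FoxK1 KD and 0 in DKD against Control at basal, 1 for insulin in Control and 4 for insulin in DKD. With limma-voom 1 was called for insulin in DKD. The offset for GC content and length gave 1 in DKD against Control and 1 in DKD against FoxK2 KD at basal, with or without the replicate block, and for insulin in DKD Tkt took the place of Rpe. With the block and the offset together, 3 were called for insulin in FoxK1 KD. A minimum of 1 count in any sample gave 1 in DKD against Control at basal, where Tkt was lost (0.23, adjusted p = 0.092), and called Taldo1 for insulin in DKD (-0.33, adjusted p = 0.025). At the study's threshold of 0.25, the counts were 3 (FoxK1 KD at basal), 3 (DKD against Control at basal), 2 (FoxK1 KD after insulin), 4 (insulin in DKD) and 4 (DKD against FoxK2 KD at basal). With a 1.5-fold minimum added they were 0 in both FoxK1 KD and DKD at basal against Control, 2 for insulin in FoxK1 KD, 1 in Control, 1 in FoxK2 KD and 0 in DKD, and 1 for DKD against FoxK1 KD. The cause of these differences was not tested, apart from the stricter or looser threshold itself. The share of all genes at the study's thresholds is not given here, so those counts cannot be set against a background.

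Leaving out 1 sample at a time gave 0 to 2 enzymes in DKD against Control at basal, 1 to 3 for insulin in Control, 3 to 4 in FoxK1 KD, 3 to 3 in FoxK2 KD and 1 to 3 in DKD, and 3 to 5 in DKD against FoxK1 KD. The other counts kept their value. Replicate numbers gave no sign of pairing over all groups together. Between samples of different groups, deviations from the group means had a mean r of -0.0134 for the same number (99 pairs). For other numbers it was 0.0043 (294 pairs). Basal and insulin samples of the same genotype were not examined on their own, so pairing within a genotype could be missed. With the replicate block alone, 1 enzyme was called in FoxK1 KD and 2 in DKD at basal, and 3 (Control), 4 (FoxK1 KD), 3 (FoxK2 KD) and 2 (DKD) for insulin, as without it. Depth limits Pgls and Rpia most, with as few as 36 and 46 counts in a sample, and simulated 1.5-fold changes in the DKD interaction were recovered in 21.6% of genes.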
